A study of Mus musculus with 12 samples.

Results

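The Hoxc and Hoxd genes followed here are 10 homeobox genes: Hoxc4, Hoxc5, Hoxc6, Hoxc8 and Hoxc9 of the cluster on mouse chromosome 15, and Hoxd1, Hoxd3, Hoxd4, Hoxd8 and Hoxd9 of the cluster on chromosome 2. They were taken by name from a table of native RNA reads, among 14042 genes with reads. Together they held 844 of 4274320 kept reads, and 844 of the 9452 reads of the 28 Hox genes with any read. The cells were wild-type P19, a mouse embryonal carcinoma line, sampled as undifferentiated cells (D0) and at days 2, 4 and 6 of neuronal differentiation (D2, D4 and D6) in NDiff 227 medium with 500 nM retinoic acid, renewed every day. There were 3 replicates per day, 12 libraries in all, and all of them came from this 1 line in culture. Each sequencing run held 1 day, so that day and run cannot be told apart, and p-values measure only the spread between these samples.

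Hox genes encode homeodomain transcription factors that give cells their position along the head-to-tail axis. Those at the 3′ end of a cluster (low numbers) are switched on first and act in the hindbrain, and those towards the 5′ end (high numbers) follow and act in the spinal cord and trunk. Retinoic acid is the best known inducer of the 3′ genes. Genes with the same number in different clusters are paralogs, descended from 1 ancestral gene.

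Kept reads ranged from 120326 (D2 replicate 1) to 613756 (D0 replicate 2) per library, and the D2 libraries were the shallowest. In direct RNA sequencing 1 read comes from 1 RNA molecule, so levels are given as reads per 1000000 kept reads after scaling between libraries (CPM) with no division by length. Markers placed the cells where their labels do. At D6 against D0, all 4 pluripotency markers with enough reads were lower (18.2% of all genes tested were), and all 10 neuron markers and all 6 neural progenitor markers were higher (19.4% of all genes were). Markers of glia, of mesoderm and muscle and of endoderm summed to at most 40.8, 36.1 and 16.1 CPM in any library, and neither of the 2 of them with enough reads to be tested rose. In bulk cultures, more cells that express a gene and more RNA per cell cannot be told apart.

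Nearly all of the 10 genes were silent before differentiation. In the 3 D0 libraries together, Hoxd3 and Hoxd8 had 1 read each, both in replicate 2, and the other 8 genes had none. At D2, 24 reads of Hoxc and 50 of Hoxd genes were found, at D4 161 and 181, and at D6 282 and 144. Of the 10 genes, 7 had the 30 reads over all libraries that the fit across genes required, and Hoxc8, Hoxc9 and Hoxd9 did not. By limma-voom at an adjusted p of at most 0.05, 6 of the 7 were higher at D2 than at D0 (4.48% of all 9309 genes tested were), 7 of 7 at D4 (12.6% of all genes) and 7 of 7 at D6 (19.4% of all genes). The gene that was not yet higher at D2 was Hoxc6. Since a gene passed the limit on reads only through the days when it was on, these counts describe the 7 genes and do not speak for all 10. Against D0, the median log2 fold change of the 7 was 4.25 (D2), 5.16 (D4) and 4.97 (D6), and that over all genes tested was −0.05, −0.0017 and 0.02. Between D2 and D4 the median of the 7 was 1.00 and between D4 and D6 −0.19, with 0.04 and 0.03 over all genes. Against 0 reads the fitted fold depends on the pseudocount, so bounds against 3 reads over the 3 D0 libraries are given below.

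**Figure D1:**
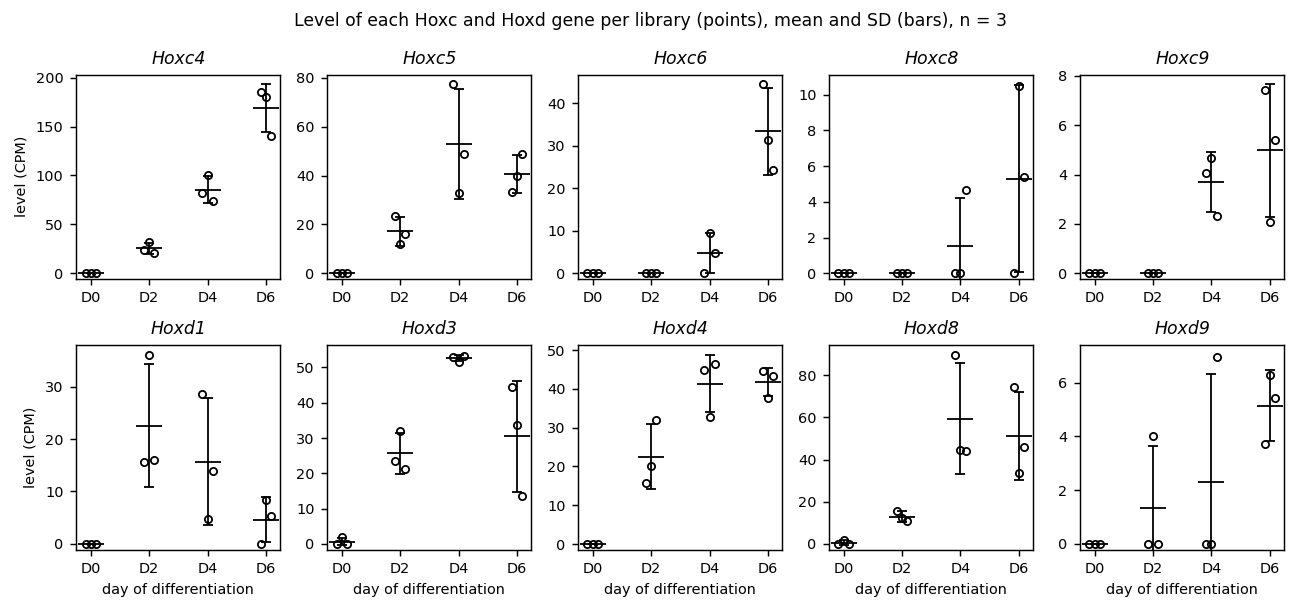
Level of each of the 10 genes in CPM (y axes, a different scale in each panel) by day of differentiation (x axes). Circles are libraries, and the horizontal lines and error bars are the mean and SD of 3. Hoxc4 climbed to 169 CPM at D6, Hoxc6 appeared last among the well-read genes, and Hoxd1 was highest at D2.

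Hoxc4 was the most abundant of the 10 genes at D6. It encodes a paralog group 4 protein with a front border in the hindbrain, and it lies at chr15:103034395-103036852 on the plus strand of mm10 as a transcript of 2 exons. It had no read at D0, 3, 8 and 4 reads in D2 replicates 1 to 3, 20, 43 and 32 at D4, and 50, 86 and 52 at D6. The level, given here and below as the mean ± SD of n = 3 libraries, went from 25.6 ± 5.73 CPM on D2 through 85.5 ± 13.7 on D4 to 169 ± 24.5 on D6, and no library of a day overlapped with a library of another day. Against D0 it was at least 12.7-fold higher on D2, 41.3-fold on D4 and 80.8-fold on D6. Each later step passed as well. From D2 to D4 the log2 fold change was 1.59 ± 0.39 (SE; limma-voom adjusted p = 0.00702), where 2.01% of all genes were higher and 2 of the 7 genes were. From D4 to D6 it was 0.96 ± 0.20 (adjusted p = 0.000438), where 4.44% of all genes were higher and 2 of the 7 genes were. By limma-trend, which weights libraries equally, the last step missed the threshold (0.97, adjusted p = 0.179). Without D2 replicate 2 or 3 the step from D2 to D4 did so too (adjusted p = 0.0607 and 0.0622).

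Hoxc5 was found from D2 on, and its mean level was highest at D4. It is the group 5 gene next to Hoxc4, at chr15:103013815-103017429. It had 3 reads in each D2 library, 19, 14 and 21 at D4, and 9, 19 and 18 at D6, which made 17.2 ± 5.84, 53.0 ± 22.7 and 40.7 ± 7.69 CPM. The D4 and D6 libraries overlapped. It was at least 7.64-fold above D0 on D2, 23.5-fold on D4 and 19.8-fold on D6. Neither later step passed. D4 against D2 had an adjusted p of 0.0938 by limma-voom, although every D4 library was above every D2 library. Pooled reads at D4 were 3.07 times those at D2 (95% counting interval 1.51 to 7.08). Pooled reads at D6 were 0.842 times those at D4 (95% counting interval 0.556 to 1.27).

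Hoxc6 was a late gene. It is the group 6 gene (chr15:103009573-103011881), known for marking the thoracic boundary of the trunk. No read of it was found at D0 or D2, 0, 4 and 2 were found in the D4 libraries, and 12, 15 and 9 at D6. Its level went from 4.67 ± 4.69 CPM at D4 to 33.5 ± 10.2 at D6, and the lowest D6 library (24.4 CPM) was above the highest D4 library (9.38 CPM). From D4 to D6 it rose by a log2 fold change of 2.58 ± 0.59 (limma-voom adjusted p = 0.00173), and pooled reads were 5.93 times as many (95% counting interval 2.48 to 17.2). The call for D4 against D0 (adjusted p = 0.0244) rested on 6 reads and was lost when any 1 D0 library, or D4 replicate 2 or 3, was left out (adjusted p from 0.0582 to 0.187), and with a barcode confidence of at least 0.9 (adjusted p = 0.0640). Without D6 replicate 2, and with libraries thinned to the smallest, Hoxc6 had too few reads to be tested.

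Hoxc8 and Hoxc9, which act in the trunk, stayed at the limit of detection. Hoxc8 had 2 reads at D4, all in replicate 3, and 0, 5 and 2 in the D6 libraries. Its 9 reads all lay on a transcript annotated as a retained intron, so none of them showed the spliced mRNA. Hoxc9 had 1, 2 and 1 reads at D4 and 2, 1 and 2 at D6. Of the genes further 5′ in the cluster, Hoxc10, Hoxc11, Hoxc12 and Hoxc13 had no read in any library, which in D6 replicate 2, with 428800 kept reads, allows up to 3.

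In the Hoxd cluster all 4 tested genes were called higher on D2 than on D0, where 4.48% of all genes were. With libraries thinned to the smallest, Hoxd3, Hoxd4 and Hoxd8 lost this call (limma-voom adjusted p from 0.0729 to 0.592). Hoxd1 then had too few reads to be tested. Hoxd1, the group 1 gene at chr2:74762980-74765142, is a known early retinoic acid response gene of the hindbrain. It had 2, 9 and 3 reads at D2, 7, 2 and 6 at D4, and 0, 4 and 2 at D6. The levels were 22.6 ± 11.7, 15.7 ± 12.04 and 4.601 ± 4.25 CPM, and every D6 library was below every D2 library (highest at D6 8.39 CPM, lowest at D2 15.7 CPM). Neither step between neighbouring days passed the test (D4 against D2 −1.04 ± 0.55, adjusted p = 0.359, and D6 against D4 −1.20 ± 0.68, adjusted p = 0.299, limma-voom). Against D0 Hoxd1 was at least 11.9-fold higher at D2 and at least 2.58-fold higher at D6, and the D6 call was lost without any 1 D0 library or without D6 replicate 2 or 3 (adjusted p from 0.0601 to 0.210). Its paralog Hoxb1 never exceeded a mean of 1.36 CPM.

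Hoxd8 was already above D0 on D2 (limma-voom adjusted p = 0.00292) and rose again to D4. With libraries thinned to the smallest, Hoxd8 lost the D2 call (log2 fold change 1.21, adjusted p = 0.592). It is a group 8 gene at chr2:74704905-74707933, with 2, 3 and 2 reads at D2, 22, 19 and 19 at D4, and 20, 16 and 17 at D6. The levels were 12.8 ± 2.61 CPM at D2, 59.5 ± 26.3 at D4 and 51.3 ± 20.8 at D6, with D4 and D6 overlapping. The step from D2 to D4 passed in limma-voom (1.84 ± 0.52 on the log2 scale, adjusted p = 0.0296) but was lost without any 1 of the D2 libraries or D4 replicate 1 (adjusted p from 0.0713 to 0.202). From D4 to D6 pooled reads changed 0.873 times (95% counting interval 0.592 to 1.29). Against the single read at D0 the pooled ratio at D6 was 68.3, with a counting interval from 11.7 to 2749.

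Hoxd9 was barely seen, with 1 read at D2, 3 at D4 and 1, 3 and 2 in the D6 libraries. Further 5′, Hoxd11 and Hoxd13 had 1 read each, both at D0 (replicates 3 and 1), and Hoxd10 and Hoxd12 had no read with an assigned replicate. These 2 single reads stand beside the 2 reads of Hoxd3 and Hoxd8 in the same undifferentiated cells.

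The 2 clusters were also compared by their summed levels. Summed over its 5 genes, Hoxc went from 42.8 ± 5.07 CPM at D2 to 148 ± 14.4 at D4 and 253 ± 25.0 at D6, and no libraries of different days overlapped. Summed Hoxd went from 84.9 ± 17.5 to 171 ± 41.7 and then 133 ± 29.2 CPM, with overlap between D4 and D6. In a two-sided exact permutation test 3 libraries against 3 cannot give a p below 0.10. For D6 against D4 the exact p was 0.10 for Hoxc (104.8 CPM higher) and 0.30 for Hoxd (a difference of −38.1 CPM). The Hoxd difference was −15.7 CPM without D4 replicate 1 and −57.0 CPM without D4 replicate 2, the extremes of leaving out 1 library. The cluster that held most of the reads changed over the days. Hoxd genes held 60%, 70.3% and 68.2% of the reads of the 10 genes in the D2 libraries, 57.0%, 47.5% and 55.0% at D4, and 38.1%, 31.1% and 33.6% at D6. The 3 days did not overlap, and the difference of −18.9 percentage points from D4 to D6 had the smallest exact p possible (0.10). Without the first-exon reads of Hoxd3 and Hoxd4 (given later), D2 and D4 did overlap.

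**Figure D2:**
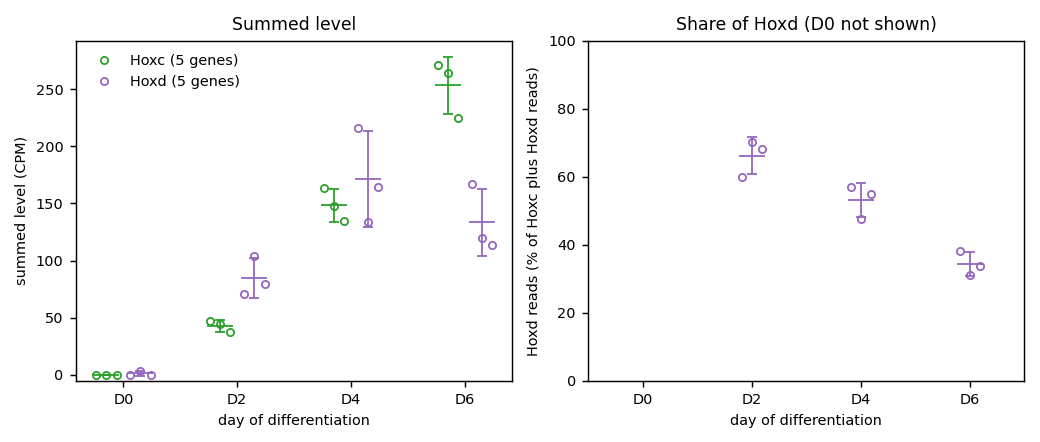
Left, summed level in CPM of the 5 Hoxc genes (green) and the 5 Hoxd genes (purple) by day, and right, reads of Hoxd genes as a percentage of the reads of all 10 genes. Circles are libraries, lines and error bars the mean and SD of 3. Hoxc kept climbing to 253 CPM at D6 while the share of Hoxd went down from 66.2% at D2 to 34.3% at D6.

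These 2 clusters were the minor part of the Hox response. The 10 genes made 14.2%, 12.9% and 10.7% of all Hox reads at D2, 13.2%, 10.1% and 10.0% at D4, and 8.64%, 7.81% and 6.38% at D6, with 95% Clopper-Pearson intervals from 8.14 to 22.3% in the shallowest library and from 6.76 to 8.97% in D6 replicate 2. Intervals cover counting error only. The mean went from 11.1% at D4 to 7.61% at D6, and every D6 library was below every D4 library (exact permutation p = 0.10). Hoxc alone held 5.16 ± 0.59% at D4 and 4.99 ± 0.65% at D6 (exact permutation p = 0.70), and Hoxd alone went from 5.94 ± 1.41% to 2.62 ± 0.60% (exact permutation p = 0.10). Of 16 Hoxa and Hoxb genes with reads, 14 were tested, all 14 rose by D6 against D0 (19.4% of all genes did), and 11 rose again from D4 to D6 (4.44% of all genes). As with the 10 genes, those silent at D0 passed the limit on reads only through the later days. Both comparisons share libraries with those of the 10 genes. In group 4, Hoxc4 (169 ± 24.5 CPM) stood beside Hoxb4 (156 ± 32.5), Hoxa4 (120 ± 17.1) and Hoxd4 (41.9 ± 3.62). In group 8, Hoxb8 stood at 834 ± 71.2 CPM against 51.3 ± 20.8 for Hoxd8 and 5.30 ± 5.24 for Hoxc8. In group 9, Hoxb9 stood at 644 ± 55.4 CPM against 4.98 ± 2.69 for Hoxc9 and 5.14 ± 1.31 for Hoxd9. These differences between genes were not tested.

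Hoxd3 and Hoxd4 need a closer account, since most Hoxd3 reads did not cover the protein-coding part. Hoxd3 had 3, 8 and 4 reads at D2, 13, 22 and 23 at D4, and 12, 16 and 5 at D6, that is 25.6 ± 5.73, 52.6 ± 0.95 and 30.5 ± 15.7 CPM. Every D6 library was below every D4 library, and the step had a log2 fold change of −0.94 ± 0.33 with an adjusted p of 0.0611 by limma-voom (3.92% of all genes were lower, none of the 7 genes was). Leaving out D6 replicate 1 brought the adjusted p to 0.0415, and leaving out D6 replicate 3 to 0.379. Hoxd4 had 2, 5 and 6 reads at D2, 11, 14 and 20 at D4 and 12, 18 and 16 at D6, and its level was 41.4 ± 7.44 CPM at D4 and 41.9 ± 3.62 at D6. Pooled reads of Hoxd4 at D6 were 1.01 times those at D4 (95% counting interval 0.655 to 1.56).

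The annotation gives a transcript of each gene a first exon at nearly the same place, chr2:74711927-74712316, with 390 bases in the Hoxd3 transcript and 388 in that of Hoxd4, which starts 2 bases later. It lies before the coding region. Of 107 Hoxd3 reads, 67 (62.6%) were aligned to this exon alone, and of 104 Hoxd4 reads 22 (21.2%) were. A read counted as such if it ended at most 5 bases past the exon. None of the 89 had a mapping quality of 10 or more, but this was common to the 2 genes, with 105 of all 107 Hoxd3 reads and 85 of all 104 Hoxd4 reads under 10. Their median aligned length was 347 bases against 984 for the other reads of the 2 genes. Of the 89, 47 began at exactly the same base, chr2:74711970, and 53 within 10 bases of it. That base is where an exon of Hoxd3os1, a gene on the opposite strand, ends in the annotation (chr2:74711970-74712526 in 1 transcript and chr2:74711970-74712054 in another). The sequence there, on the plus strand, is shown with the 2 bases before the common read start in capitals, because read from the other strand they are GT, the letters with which introns begin.

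chr2:74711955-74711984: ccctctttttctaACctttgtctctgcaga

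The table gives no strand for an alignment, so reads of Hoxd3 and of Hoxd3os1 that cover this exon cannot be told apart here, and no line of the table, of any class, names Hoxd3os1. Whether it was among the transcripts to which reads were aligned was not tested. Hoxd3 reads confined to the exon numbered 1 at D0, 3, 5 and 2 in the D2 libraries, 11, 18 and 15 at D4 and 5, 5 and 2 at D6, and went from 40.6 ± 5.23 CPM at D4 to 11.5 ± 6.63 at D6 with no overlap (exact permutation p = 0.10, the smallest possible). The 40 remaining reads numbered 5 at D2, 14 at D4 and 21 at D6, at 12.03 ± 5.68 CPM at D4 and 19.1 ± 9.58 at D6 (exact permutation p = 0.40). The difference between both kinds of reads was not tested. Hoxd4 reads confined to the exon stood at 7.58 ± 3.03 CPM at D4 and 11.02 ± 2.58 at D6 (exact permutation p = 0.30). When the confined reads were left out, a setting chosen after seeing the data, Hoxd3 was still higher than D0 on each later day (limma-voom adjusted p = 0.00602 on D2, 9.71e-05 on D4 and 3.24e-06 on D6), and its step from D4 to D6 turned to a log2 fold change of 0.46 (adjusted p = 0.651). The difference of the summed Hoxd level between D6 and D4 was then −12.9 CPM (exact permutation p = 0.70) in place of −38.1 CPM. The Hoxd share of the reads of the 10 genes was then 45.5%, 65.6% and 65% in the D2 libraries, 50.6%, 35.7% and 47.3% at D4, and 33.6%, 27.6% and 29.7% at D6. D2 and D4 then overlapped (exact permutation p = 0.30), and D4 and D6 did not (p = 0.10).

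**Figure D3:**
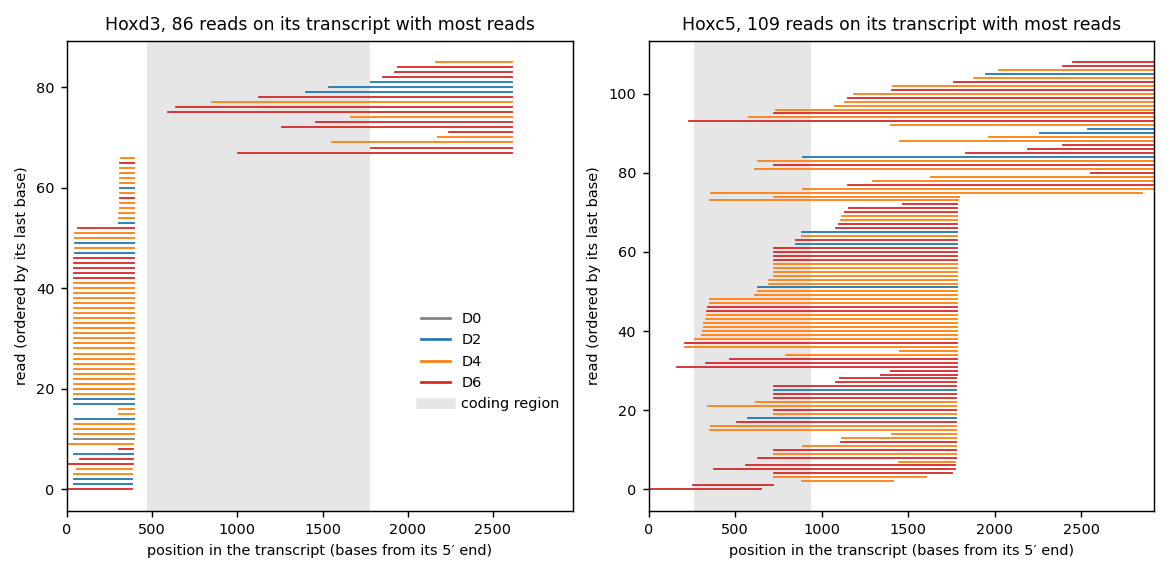
Each line is 1 read, drawn from its first to its last aligned base on the gene's transcript with most reads (x axes, bases from the 5′ end) and coloured by day. The grey band is the coding region. Left, 67 of the 86 Hoxd3 reads on this transcript stop before the coding region, and right, Hoxc5 reads end at 2 sites, the nearer 1140 bases before the other.

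**Figure D4:**
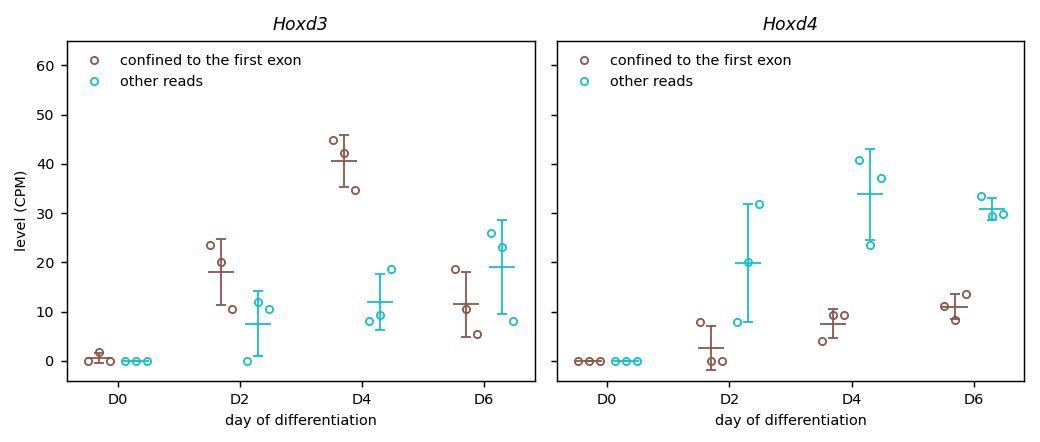
Levels in CPM of Hoxd3 (left) and Hoxd4 (right) reads by day, split into reads confined to the shared first exon (brown) and all other reads (cyan). Circles are libraries, lines and error bars the mean and SD of 3. For Hoxd3 the confined reads stand at 40.6 CPM at D4 and at 11.5 CPM at D6, and the other reads at 12.03 and 19.1 CPM.

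Hoxd8 held a smaller group of the same kind. Of its 121 reads, 20 (16.5%) were aligned over only 91 to 139 bases far from its 3′ end, with mapping quality 0. They began at chr2:74705965 to 74705975, around the first base of the second exon of a short Hoxd8 transcript (chr2:74705971-74706118), and ended before the last base of that exon. This group was absent at D0 and D2, had 1, 2 and 1 reads in the D4 libraries and 7, 5 and 4 at D6, and went from 3.70 ± 1.23 to 15.8 ± 8.85 CPM (exact permutation p = 0.10, no overlap). The remaining Hoxd8 reads stood at 55.8 ± 25.9 CPM at D4 and 35.5 ± 12.6 at D6 (exact permutation p = 0.40). This group was singled out after its values were seen.

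Sequencing of a native RNA starts at its poly(A) tail, so the last aligned base of a read is set beside the annotated end and the nearest hexamer. Some reads ended elsewhere. The 67 Hoxd3 reads confined to the first exon ended at bases 381 to 392 of the transcript, where that exon ends at base 390. The 20 short Hoxd8 reads and 8 Hoxc4 reads ended before the stop codon with no hexamer near. Cleavage sites normally lie a short way after the hexamer AATAAA or ATTAAA, the poly(A) signal. For the main sites of the 7 better-read genes, up to 30 bases that begin just before the hexamer and end near the site are shown from the mm10 transcripts, with the hexamer in capitals.

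Hoxc4, chr15:103036820-103036849: caatAATAAAccagtggctgtgaattagtt

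Hoxc5 near site, chr15:103016262-103016291: atcaAATAAAgccagaaaaagaacaggact

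Hoxc5 far site, chr15:103017404-103017429: atttATTAAAggtctgacttcactgc

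Hoxc6, chr15:103011851-103011880: atttAATAAAactgatattatttttaaaag

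Hoxd1, chr2:74765119-74765142: tggtAATAAAagttacagaatcta

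Hoxd3, chr2:74747890-74747919: ttagAATAAAacctttttttcagttggaag

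Hoxd4 near site, chr2:74728848-74728877: agtcATTAAActcctgaaaatctctgctgg

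Hoxd8, chr2:74707906-74707933: ccttAATAAAgagatgtacctccataaa

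Hoxc4 reads ended almost only at the annotated end of the transcript (282 of 298 reads), and Hoxc6 reads mostly so (32 of 42, with 8 ending 81 bases earlier). Positions were given on annotated transcripts, so an RNA cut past the annotated end would be recorded as ending there. Hoxc5 used 2 sites 1140 bases apart, both after the stop codon. The near site took 71 reads and the far, annotated end 33, a far share of 31.7% (95% Clopper-Pearson 22.9 to 41.6%). The far share was 31.0 ± 10.2% over the D4 libraries and 30.3 ± 7.05% over the D6 libraries (exact permutation p = 1.0). Hoxd4 ended mainly 289 bases before its annotated end (68 reads against 11 at the end), and its far share was 0, 0 and 12.5% in the D4 libraries and 25.0, 15.4 and 27.3% in the D6 libraries, with no overlap (exact permutation p = 0.10) but on 2 and 7 far reads. Of the 40 Hoxd3 reads outside the first exon, 37 ended 353 bases before the annotated end of the transcript, next to the AATAAA shown. Hoxd8 ended mostly at its annotated end (81 of 121 reads).

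Few reads reached back to the start codon in most of these genes. On the transcript with most reads, 40 of 291 Hoxc4 reads (13.7%), 7 of 109 Hoxc5 reads (6.42%) and 1 of 42 Hoxc6 reads reached it. So did 18 of 105 Hoxd8 reads (17.1%), 5 of 35 Hoxd1 reads (14.3%), 18 of 55 Hoxd4 reads (32.7%), 4 of 9 Hoxc9 reads and 0 of 10 Hoxd9 reads. Of the 86 Hoxd3 reads, 67 began before the start codon, all of them confined to the first exon and ending before it, and no other Hoxd3 read reached it. The median aligned length was 1003 bases for Hoxc4, 1075 for Hoxc5 and 1285 for Hoxd8.

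The poly(A) tails of these mRNAs were long. A tail shields an mRNA from decay and is shortened as the RNA ages. The median tail of Hoxc and Hoxd reads was 119, 111 and 114 nt in the D4 libraries and 130, 138 and 137 nt at D6. The mean went from 115 ± 4.13 to 135 ± 4.21 nt, a difference of 20.4 nt with no overlap (exact permutation p = 0.10, the smallest possible). For Hoxc alone the difference was 7.05 nt and for Hoxd alone 27.3 nt (exact permutation p = 0.20 each). The reads of all other genes also had longer tails at D6, with medians from 95.2 to 98.2 nt at D4 and from 100.5 to 102.5 nt at D6 and no overlap. They were below those of the 10 genes in 6 of 6 libraries of D4 and D6 (mean difference 25.9 ± 9.32 nt, exact sign-flip p = 0.0313, the smallest possible). That difference counts reads, and abundant genes dominate the other side. Averaged over genes with at least 5 reads it was 5.94 nt (exact sign-flip p = 0.125). Against Hoxa and Hoxb reads it was 3.44 ± 9.21 nt (exact sign-flip p = 0.438), positive in 4 of 6 libraries. Without the first-exon reads of Hoxd3 and Hoxd4 it was 6.38 ± 8.27 nt (exact sign-flip p = 0.0938), positive in 5 of 6. Averaged over genes, this difference changed sign (given later). Tails under 30 nt made 2.53 ± 1.76% of the reads at D4 and 2.47 ± 0.84% at D6. Tails from 30 to 90 nt made 32.9 ± 3.41% at D4 and 25.8 ± 3.61% at D6 (exact permutation p = 0.10). The D2 medians, from 15 to 37 reads each, ranged from 96.4 to 136 nt, and those of all other genes from 96.5 to 98.4 nt. In D2 replicate 2, the D2 library with most reads of the 10 genes, they stood at 96.4 nt against 96.7 nt for all other genes.

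**Figure D5:**
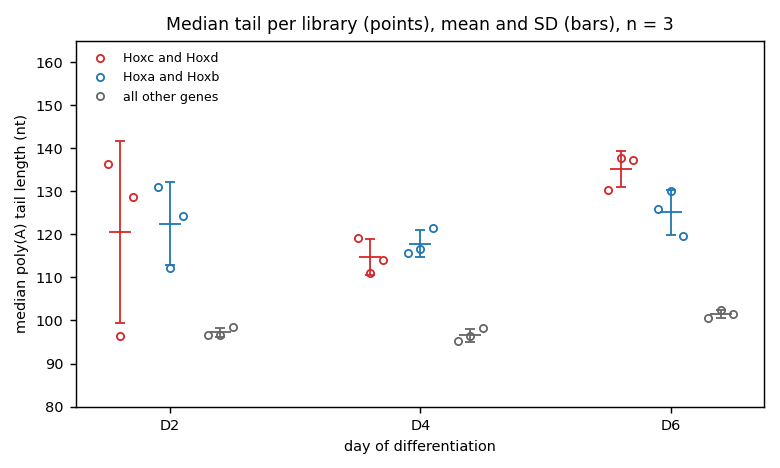
Median poly(A) tail length in nt (y axis, from 80 nt) per library of the reads of the 10 genes (red), of Hoxa and Hoxb genes (blue) and of all other genes (grey) at D2, D4 and D6. Circles are libraries, lines and error bars the mean and SD of 3. The red points lie from 111 to 119 nt at D4 and from 130 to 138 nt at D6, above the grey points in all 6 of those libraries.

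By gene, the pooled median at D6 was 143 nt for Hoxc4 (188 reads), 138 nt for Hoxd8 (53 reads), 137 nt for Hoxd4 (46 reads) and 121 nt for Hoxc5 (46 reads). Hoxc6, the late gene, had 88.4 nt (36 reads). Reads confined to the shared first exon of Hoxd3 and Hoxd4 had 89.1 nt at D4 (53 reads) and 92.7 nt at D6 (24 reads). Without them, the 10 genes stood at 119 ± 3.75 nt at D4 and 137 ± 4.19 nt at D6 (exact permutation p = 0.10).

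RefSeq promoters (250 bases before to 50 after the start, GRCm38.p6, the sequence of mm10) were at hand for 6 of the 10 genes, Hoxc4, Hoxd1, Hoxd3, Hoxd4, Hoxd8 and Hoxd9. They were searched on both strands. No promoter of the 6 held a direct repeat of the retinoic acid receptor half-site spaced by 1, 2 or 5 bases, found in 0.222%, 0.268% and 0.0974% of 32851 promoters. A single AGGTCA was found in 4 of 6 (16.3% of all promoters). TTTATGG, a motif of caudal factors, occurred 2 times in the Hoxd4 promoter and in none of the other 5 (2.75% of all). TTTATTA (4.93% of all promoters) and TGATTNAT, the motif of Pbx and Hox dimers (3.22%), were found in none of the 6. CCAAT occurred in 5 of 6 (37.4% of all) and GGGCGG in 3 of 6 (35.7%). The windows with AGGTCA or its reverse complement TGACCT, and the first TTTATGG of Hoxd4, are shown with the motif in capitals, to place the candidate retinoic acid receptor and caudal motifs of these promoters. A match is no evidence of binding.

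Hoxd8, chr2:74704469-74704498: tcgctttgataAGGTCAggattcggaggct

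Hoxd3, chr2:74711821-74711850: agacctttttaTGACCTatttgcggtcgtc

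Hoxd4, chr2:74721822-74721851: tgatatgaataTGACCTctctcgcattctg

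Hoxc4, chr15:103034238-103034267: gcgctgccctgTGACCTacacagactgcaa

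Hoxd4, chr2:74721922-74721951: gccaaaggttaTTTATGGttctgcagagcc

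CpG pairs numbered 29 in the Hoxd1 promoter, 20 in those of Hoxd3 and Hoxd9, 9 in Hoxc4, 6 in Hoxd8 and 4 in Hoxd4, against a median of 7 over all promoters.

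Neighbours were the nearest 3 protein-coding genes with reads on each side of each cluster. Of these, 1 next to Hoxc and 1 next to Hoxd rose by D6, 2 of 11 tested, close to the 19.4% of all genes. Next to Hoxc, Smug1, a DNA repair glycosylase, went from 10.9 CPM before differentiation to 132 CPM at the end (D6 against D0 3.54 ± 0.39 on the log2 scale, limma-voom adjusted p = 2.71e-11) and again from D4 to D6 (1.29 ± 0.24, adjusted p = 8.45e-05). The other tested neighbours, Calcoco1, Atp5g2, Cbx5 and Hnrnpa1, did not pass at D6 against D0, and Atf7 had too few reads. Calcoco1 was lower on D2 than on D0 (−1.90, adjusted p = 0.0477), and Hnrnpa1 was lower on D6 than on D4 (−0.30, adjusted p = 0.0248). Next to Hoxd, Mtx2, a mitochondrial import gene, rose at D2 (0.93 ± 0.22, adjusted p = 0.00169) and was still higher at D6 (0.66 ± 0.20, adjusted p = 0.00515). Lnpk, Atp5g3, Atf2, Hnrnpa3 and Nfe2l2 did not pass at D6.

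Genes outside the Hox family with the most similar course were found by the Pearson correlation of log2(CPM + 1) over the 12 libraries, among 4970 genes with a mean of at least 10 reads. The libraries fall into 4 days, so this is a description. For summed Hoxc they were Neurog1 (r = 0.993), a proneural factor, Nr2f1 (0.992), an orphan nuclear receptor, and Hmgcs1 (0.992), an enzyme of cholesterol synthesis. Neurog1 had no read at D0 and reached 121 ± 21.4 CPM at D6. For summed Hoxd they were Hes5 (0.996), an effector of Notch signalling, Rarb (0.988), a retinoic acid receptor and classical direct target of the hormone, and Fndc5 (0.982). Between D4 and D6, Hes5 went from 312 ± 42.5 to 280 ± 65.1 CPM and Rarb from 67.2 ± 7.70 to 85.2 ± 9.62 CPM. Fndc5 was highest at D2 (162 ± 45.2 CPM) and stood at 134 ± 9.18 CPM at D6.

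Partners and regulators of Hox genes were compared between D0 and D6, when 19.4% of all genes tested were higher and 18.2% lower. Of 9 TALE cofactors, the homeodomain proteins that bind DNA with Hox proteins, 7 rose and none fell, led by Meis2 (log2 fold change 4.64) and Meis1 (2.10). Of 11 tested retinoid receptors and enzymes 9 rose and none fell, led by Cyp26b1 (8.54), which degrades retinoic acid. From D4 to D6, with 4.44% of all genes higher and 3.92% lower, 3 of them rose further, Cyp26a1 (2.35), Dhrs3 (1.57) and Cyp26b1 (1.19), and the binding proteins Crabp2 (−2.45) and Crabp1 (−0.97) fell. No read of the 3 caudal genes Cdx1, Cdx2 and Cdx4, known activators of trunk Hox genes, was found in any library. Of 14 tested polycomb genes, whose products keep Hox clusters silent, 3 rose, among them Bmi1 (2.63) and Phc2 (1.14), and 3 fell (Cbx7 −3.43, Phc1 −1.24 and Jarid2 −0.80), shares near those of all genes. Of 9 tested trithorax genes none rose and 1 fell, Dpy30 (−0.50). All of these calls are at an adjusted p of at most 0.05 by limma-voom.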

How the data were processed

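Poly(A)-selected RNA of P19 cells was sequenced directly on nanopores. Per the study's methods, the authors used Guppy for base calling, Nanopolish for tails and Deeplexicon for barcodes, and mapped to mm10 with GENCODE vM17 genes (Minimap2, version 2.20 in the submitters' processing notes). Of the 6306434 lines deposited, each 1 alignment, 69 were malformed and 289260 carried no barcode call. The deposited values are not normalized. Tail length is in nucleotides, mapping quality is a score given by the authors' aligner, and the confidence of a barcode, as deposited, is a fraction. A second deposited table holds the authors' own DESeq2 fold changes and was not used.

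Reads tagged PASS on nuclear mRNA transcripts (4274320) were tallied here per gene and library. Genes with at least 30 reads were fitted with limma-voom (limma 3.58.1, R 4.3.3) over all 12 libraries, with trimmed-mean scaling (30% and 5% trimmed), a pseudocount of 0.5 reads, and Benjamini-Hochberg adjustment over all genes, called at 0.05. The study's own tool for counts was not used, since reads were tallied here and no count column was at hand. Sums, shares and tails were compared over libraries by two-sided exact tests. Read ends more than 30 bases apart were grouped separately, and groups of at least 5 reads are described. The reference annotation (GENCODE vM21) held 97.8% of the transcripts, all at the table's coordinates. The fit was tested on simulated counts. Alternatives covered scaling, filters, weights, depth, left-out libraries and the replicate block. Sequences are from GENCODE and RefSeq. Python 3.11.15 with numpy 2.4.6, pandas 2.3.3, scipy 1.17.1 and matplotlib 3.10.9 was used.

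The 10 genes, the gene lists and the tests were chosen with earlier results of these data known. The rule for named genes was all 10 members, the other Hoxc and Hoxd genes, 3 genes of similar course per cluster, 3 neighbours on each side, and the 2 members of each list with the largest fold change in each direction. The read groups of Hoxd3, Hoxd4 and Hoxd8, further list members and paralogs were named after their values were seen. Some items are not reported here.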

Additional observations from a re-analysis of the deposited data

Results flagged for a closer look

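Reads outside the comparisons above also carried these genes. Of the reads whose barcode was not assigned to a replicate, 28 came from the 10 genes, and since each run held 1 day they could be placed by day. They numbered 0 (D0), 3 (D2), 7 (D4) and 18 (D6), among 47288, 16429, 28642 and 35866 such reads of the same class. They entered no comparison because no library could be named for them.

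A read-through transcript that joins Hoxd4 to Hoxd3, Gm28230, held 26 reads that count for neither gene. Its reads numbered 0 (D0), 2 (D2), 12 (D4) and 12 (D6), at 10.5 ± 5.02 CPM at D4 and 10.3 ± 2.62 at D6 (SD, n = 3).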

How the results depend on the processing

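The number of the 7 tested genes that were called stayed within 1.5 times the values above under most alternatives. For D2 against D0 (6 called) the count was 1 with libraries thinned to 120326 reads and 5 to 6 when 1 library was left out. For D4 against D0 (7 called) the range without 1 library was 5 to 7. For D6 against D0 (7 called) it was 4 with a mapping quality of at least 10, where Hoxd3 and Hoxd4 had too few reads to be tested and Hoxd1 lost its call (adjusted p = 0.0680), and 5 to 7 without 1 library. For D4 against D2 (2 called) it was 1 with a mapping quality of at least 10, 1 with a barcode confidence of at least 0.9, 0 when thinned, and 0 to 3 without 1 library. For D6 against D4 (2 called) it was 1 by limma-trend, 1 when thinned and 1 to 3 without 1 library. Thinning leaves fewer reads, and for the other settings the cause was not tested.

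The tail difference from Hoxa and Hoxb reads (3.44 nt) was −2.60 nt over gene medians, the cause of which was not tested, and 0.57 to 5.60 nt without 1 library. The difference from all other reads (25.9 nt) was 5.94 nt over gene medians and 23.9 to 28.1 nt without 1 library, when 5 libraries cannot give a p below 0.0625. The sums and shares kept their direction in every setting run. Scaling by library totals alone moved the median log2 fold change of all genes against D0 to 0.13 (D2), 0.12 (D4) and 0.26 (D6), and no call among the 10 genes changed with it.

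Replicate numbers did not pair the libraries: the deviations of same-numbered libraries correlated from −0.14 to 0.17, with 4 of 18 pairs over 0.1. With the replicate number as a block the counts of called genes were 6, 7, 7, 2 and 2, as without it. Within numbers, summed Hoxc at D6 was 104.8 CPM above D4 and summed Hoxd 38.1 CPM below (−38.1), each with an exact sign-flip p of 0.25, the smallest that 3 pairs allow. With 93 to 183 reads of these genes per library at D4 and D6, Hoxc8, Hoxc9 and Hoxd9 stayed below the 30 reads required. With no limit on reads, 7, 8 and 10 of the 10 genes were called at D2, D4 and D6 against D0. Of all 14042 genes, 904, 1290 and 2110 were then called higher. The added calls rested on few reads, that of Hoxd9 at D2 on 1.

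Steps that were not called also changed sign. From D4 to D6, Hoxd3 (−0.94) turned to 0.46 and Hoxd4 (0.03) to −0.065 without the reads confined to the first exon, a setting chosen after seeing the data, Hoxd4 to −0.018 with every class of transcript and −0.047 with the transcript as the unit, and Hoxc5 (−0.19) to 0.10 with every quality tag. From D2 to D4, Hoxc6 (1.00) turned to −0.10 with a pseudocount of 2. Without 1 library, the step from D4 to D6 ranged from −0.18 to 0.10 for Hoxd4 and from −0.45 to 0.081 for Hoxd8. The causes were not tested.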
